A study of Mus musculus with 48 samples.

Results

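Aminoacyl-tRNA synthetases join each amino acid to its tRNA, the step that turns the genetic code into protein sequence. The 36 genes described here are 20 that encode the enzymes of the cytosol and 16 that encode the separate enzymes of mitochondria, whose symbols end in 2. They were taken from a list of symbols, matched to Ensembl gene identifiers, and all 36 were found among the 34183 genes deposited. All 36 passed the filter on low counts in every comparison.

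RNA was sequenced from neuron-enriched cultures of dorsal root ganglion (DRG) from adult wild-type mice, and every group carried that genotype. The knockdown groups were siAtf4, siAtf3, siJun, siStat3, siKlf6, siRest and siAlyref. Each received a pool of siRNAs against 1 gene right after the cells were isolated, and siCONTROL received a control pool. The overexpression groups received synthetic mRNA for Atf4 together with Cebpg, for Atf4 alone, or for green fluorescent protein (GFP mRNA). All of these were harvested 42 h after isolation. A further group, time 0, was untransfected and taken at 0 h. In siCONTROL against time 0, time in culture and transfection therefore change together and cannot be told apart. Each of the 12 groups had 4 libraries. The ages of the mice are not given beyond adult, and whether the libraries of a group came from separate animals or dishes is not stated, so each p-value reflects only the spread among these libraries, which may be technical.

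Cytosolic synthetases fall into 2 structural classes with unrelated catalytic folds. In mammals 8 of the cytosolic genes (Eprs, Iars, Lars, Mars1, Qars, Rars, Kars and Dars) encode enzymes held in the multi-synthetase complex, and the other 12 encode free enzymes. Gars and Kars each encode both the cytosolic and the mitochondrial enzyme. Atf4 is the transcription factor of the integrated stress response, which is turned on when amino acids are short or proteins misfold. It binds DNA as a dimer with C/EBP proteins such as Cebpg, and the genes of cytosolic synthetases are among its known targets. Mitochondrial synthetases are encoded in the nucleus and serve the few proteins made inside the organelle.

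Atf4 with a C/EBP partner recognises a composite element, searched here as TGATGNAA on both strands of the 250 bases before each listed start (RefSeq promoters, GRCm38.p6). Of the 36 synthetase genes, 27 had a promoter in that collection. The element was present in 3 of 13 cytosolic genes (23.1%), in 0 of 14 mitochondrial genes, and in 1134 of 32851 promoters of all genes (3.5%). A synthetase gene counted if any of its promoters matched, whereas the 32851 are single promoters, so these shares differ in unit. The stricter form TGATGCAA, which is contained in the first, was present in 2 of the 13 cytosolic genes (15.4%) and in 260 of all promoters (0.8%). The 3 promoters that hold the element belong to genes whose transcripts fell in siAtf4, as 13 of the 20 cytosolic transcripts did. The other cytosolic genes whose transcripts fell had no match or no promoter in that collection. The stretch around the element is shown to place the match. Each is written 5′ to 3′ along the gene's own strand, capitals mark the element, and in all 3 it reads TGATGNAA on the opposite strand. It lies 23 to 30 bases before the start of Gars (glycyl; chr6:55037931-55038000, plus strand), 105 to 112 bases before that of Aars (alanyl; chr8:111033690-111033777, plus strand) and 8 to 15 bases before that of Tars (threonyl; chr15:11399659-11399713, minus strand).
Gars: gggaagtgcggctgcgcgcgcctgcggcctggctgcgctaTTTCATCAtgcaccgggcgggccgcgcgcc
Aars: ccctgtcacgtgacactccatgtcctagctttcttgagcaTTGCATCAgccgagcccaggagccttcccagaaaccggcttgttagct
Tars: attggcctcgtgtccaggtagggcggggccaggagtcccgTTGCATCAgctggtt
The same stretch before a listed start of each mitochondrial partner gene is shown for contrast, and neither holds the element. It covers chr17:45506680-45506767 (plus strand) for Aars2, the first of the 2 promoters listed for that gene, and chr3:95754978-95755032 (minus strand) for Tars2.
Aars2: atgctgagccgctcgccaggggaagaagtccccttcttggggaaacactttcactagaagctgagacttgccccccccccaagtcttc
Tars2: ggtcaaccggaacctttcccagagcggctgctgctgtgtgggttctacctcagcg
The starts used for Aars, Aars2 and Tars2 lie inside the annotated spans of these genes, downstream of their outermost starts. A match says only that these letters are present, and binding was not measured.

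The libraries held 1539198 to 6621566 counts, the lowest being siKlf6 replicate 1. Each targeted transcript was lower in its own knockdown with no overlap with siCONTROL, Atf4 at 66.3 to 123 CPM (a count scaled by library size) in siAtf4 libraries against 517 to 602 CPM in siCONTROL. Atf4 itself was higher in siCONTROL at 42 h, at 517 to 602 CPM, than at time 0, at 222 to 237 CPM. The 9 neuronal markers (among them Rbfox3, Tubb3 and Prph) were all detected, summing to 12401 to 14043 CPM in siAtf4, 11603 to 14268 CPM in siCONTROL and 17012 to 18686 CPM at time 0. Levels are CPM scaled by TMM, which corrects for library composition. The deposited values appear to be already weighted by transcript length, which was inferred and is not stated by the submitters. Comparisons of level between different genes rest on that inference.

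Cytosolic synthetase transcripts were more abundant than mitochondrial ones in all 12 groups. The 20 cytosolic genes summed to 2838 ± 136 CPM in siAtf4, 4317 ± 200.1 CPM in siCONTROL and 2222 ± 80.1 CPM at time 0 (SD, n = 4 each). The 16 mitochondrial genes summed to 471 ± 64.9 CPM in siAtf4, 498 ± 146 CPM in siCONTROL and 500.1 ± 20.8 CPM at time 0. The cytosolic sums of the 3 groups do not overlap, while the mitochondrial sums, of which Lars2 is the largest part, do. Nars, the asparaginyl enzyme, had the highest cytosolic level in every group. Lars2, the mitochondrial leucyl enzyme, gave 239 of the 471 CPM in siAtf4 and 265 of the 498 CPM in siCONTROL, and it varied widely, with 159, 238, 469 and 195 CPM in the siCONTROL libraries. Without Lars2, no mitochondrial gene averaged more than 34.4 CPM in siAtf4, 35.3 CPM in siCONTROL or 61.2 CPM at time 0. The overlap of the mitochondrial sums therefore does not show that the other genes kept their level. The median level of the 16 mitochondrial genes was 13.1 CPM in siAtf4, 14.0 CPM in siCONTROL and 17.8 CPM at time 0.

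**Figure D1:**
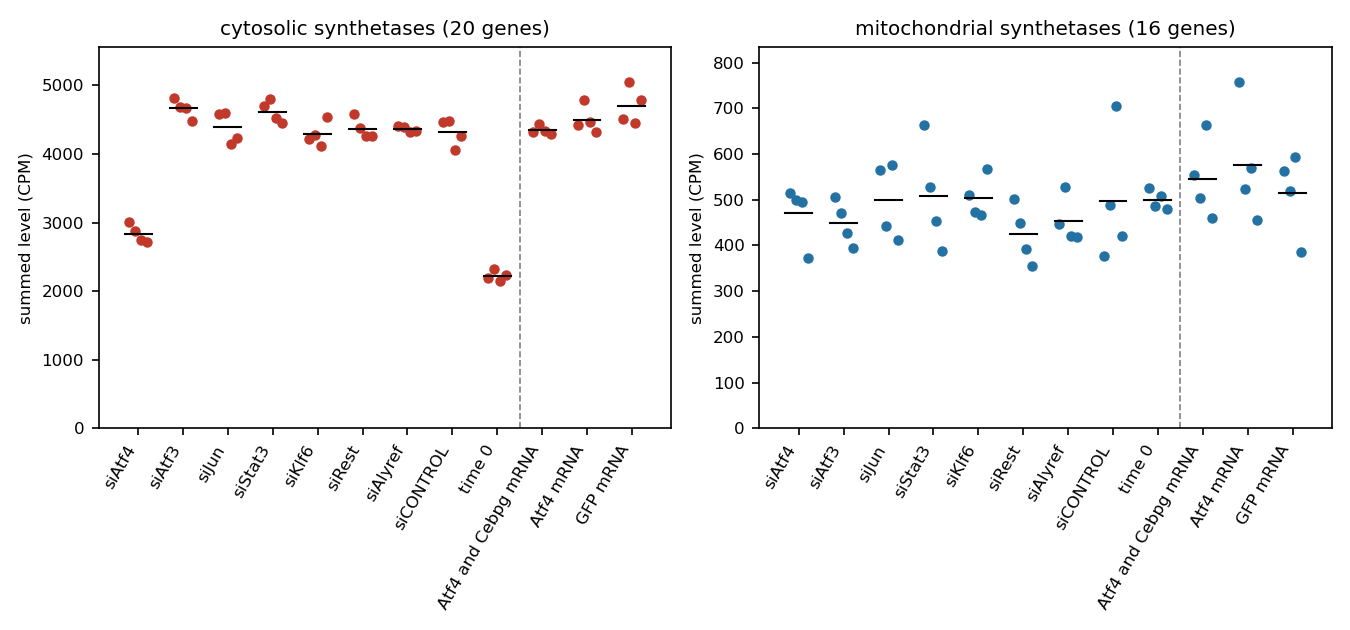
Summed level (CPM) of the 20 cytosolic synthetase genes (left) and the 16 mitochondrial ones (right) in each of the 48 libraries, with the group mean as a bar; the dashed line separates the 2 deposited tables, which were scaled separately. Among the siRNA groups at 42 h, siAtf4 stands below the others in the cytosolic panel, at 2723 to 3013 CPM against 4059 to 4481 CPM in siCONTROL, and the mitochondrial groups overlap.

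Between time 0 and 42 h in culture, 19 of the 20 cytosolic synthetase transcripts rose and 0 fell (siCONTROL against time 0, edgeR quasi-likelihood test, Benjamini-Hochberg adjusted p under 0.05 over 13448 genes). Over all genes tested, 28.7% rose and 29.2% fell in that comparison. The median log2 fold change of the 20 was 0.91, against 0.01 for all genes. The exception was Qars, the glutaminyl enzyme, at 80.7 ± 9.83 CPM in siCONTROL and 75.6 ± 14.6 CPM at time 0 (log2 fold change 0.09, adjusted p = 0.598). The largest rises were those of Cars (3.40-fold), Tars (3.21-fold) and Aars (3.20-fold), the enzymes for cysteine, threonine and alanine. All 12 free enzymes and 7 of the 8 complex members rose. The median log2 fold change was 0.95 over the free enzymes and 0.76 over the complex members. Of the 19 calls, that of Vars (valyl) was lost when any of 6 single libraries was left out, with an adjusted p of up to 0.113.

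Few mitochondrial transcripts passed the test in culture, where 28.7% of all genes rose and 29.2% fell. Their log2 fold changes had a median SE of 0.21, against 0.08 for the cytosolic genes, so a missing call does not show an unchanged level. At an unadjusted p under 0.05, 1 was higher and 5 were lower, where 62.6% of all genes passed. Yars2 (tyrosyl) rose, Iars2 (isoleucyl), Vars2 (valyl) and Aars2 (alanyl) fell, and 12 of 16 did not pass the test, with a median log2 fold change of -0.22. Iars2 had 35.7, 35.9, 34.1 and 35.5 CPM in siCONTROL, against 57.9, 64.8, 55.9 and 66.4 CPM at time 0. These groups do not overlap, and the log2 fold change was -0.80 ± 0.0913 (SE, edgeR adjusted p = 2.07e-05). Vars2 had 15.7, 7.87, 5.94 and 15.7 CPM in siCONTROL, against 23.8, 20.1, 19.2 and 18.5 CPM at time 0 (log2 fold change -0.90 ± 0.282 SE, edgeR adjusted p = 0.0172). Yars2 had 22.0, 28.4, 31.9 and 18.7 CPM in siCONTROL, against 16.3, 17.5, 18.8 and 18.5 CPM at time 0 (log2 fold change 0.51 ± 0.172 SE, edgeR adjusted p = 0.0237), with overlap between the groups. Aars2 had 15.5, 13.9, 10.2 and 8.75 CPM in siCONTROL, against 16.3, 16.4, 14.7 and 20.1 CPM at time 0 (log2 fold change -0.49 ± 0.197 SE, edgeR adjusted p = 0.0499), also with overlap. The Aars2 call was lost under 4 of 5 alternative settings and without any of 5 single libraries, the Yars2 call without any of 4 libraries, and the Vars2 call without siCONTROL replicate 2. The Iars2 call held under all of these.

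For 16 amino-acid pairs the ratio of the cytosolic to the mitochondrial transcript was tested library by library, on log2(CPM + 0.5), with a two-sided exact permutation test of 4 against 4 libraries. Its smallest possible p is 0.0286. After adjustment over the 16 pairs, a pair can therefore pass only when most pairs reach that p together. Eprs, which encodes a fused glutamyl and prolyl enzyme, enters 2 pairs. All 16 ratios were higher in siCONTROL than at time 0, and 11 of them passed the threshold after adjustment over the 16 pairs (adjusted p = 0.0416 for each). The difference in log2 ratio was 2.17 for Aars and Aars2, 2.02 for Cars and Cars2, 1.89 for Tars and Tars2 and 1.70 for Iars and Iars2. The pairs that did not pass were Eprs and Pars2, Lars and Lars2, Mars1 and Mars2, Wars and Wars2, and Yars and Yars2, with differences of 0.31 to 1.04.

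Cell-type marker levels also differed between these groups. Of the 9 neuronal markers, 6 fell in culture, their sums being given above. The 5 satellite glia markers summed to 628 to 735 CPM in siCONTROL against 4341 to 5403 CPM at time 0, and 3 of them fell and 1 rose. The 7 Schwann cell markers summed to 1244 to 1473 CPM against 1956 to 2332 CPM, and 6 of them fell and 0 rose. The 7 fibroblast markers summed to 123 to 255 CPM in siCONTROL against 254 to 471 CPM at time 0. Of the 6 fibroblast markers tested, 3 rose and 2 fell. The 6 macrophage markers summed to 27.6 to 46.3 CPM in siCONTROL, where C1qa was at 0, against 13.5 to 24.9 CPM at time 0. Of the 4 macrophage markers tested, 2 rose and 1 fell. The 6 endothelial and mural markers summed to 201 to 254 CPM in siCONTROL against 139 to 176 CPM at time 0, and 4 of them rose and 1 fell. The 3 red cell markers summed to 2.04 to 11.5 CPM in siCONTROL, where Hbb-bt was at 0, against 104 to 135 CPM at time 0. The part of these shifts in the synthetase changes was not tested. In bulk cultures fewer cells of a type and less RNA per cell cannot be told apart.

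When Atf4 was knocked down, 13 of the 20 cytosolic synthetase transcripts fell and 0 rose (siAtf4 against siCONTROL, edgeR, adjusted over 14876 genes). Of all genes tested, 4.17% fell and 2.74% rose. The median log2 fold change over the 20 was -0.66. The mitochondrial set gave 0 of 16 in either direction, with a median of -0.12. DESeq2 called the same numbers, 13 and 0. At an unadjusted p under 0.05, 3 mitochondrial transcripts passed, Ears2 and Hars2 higher and Aars2 lower, where 18.5% of all genes did.

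**Figure D2:**
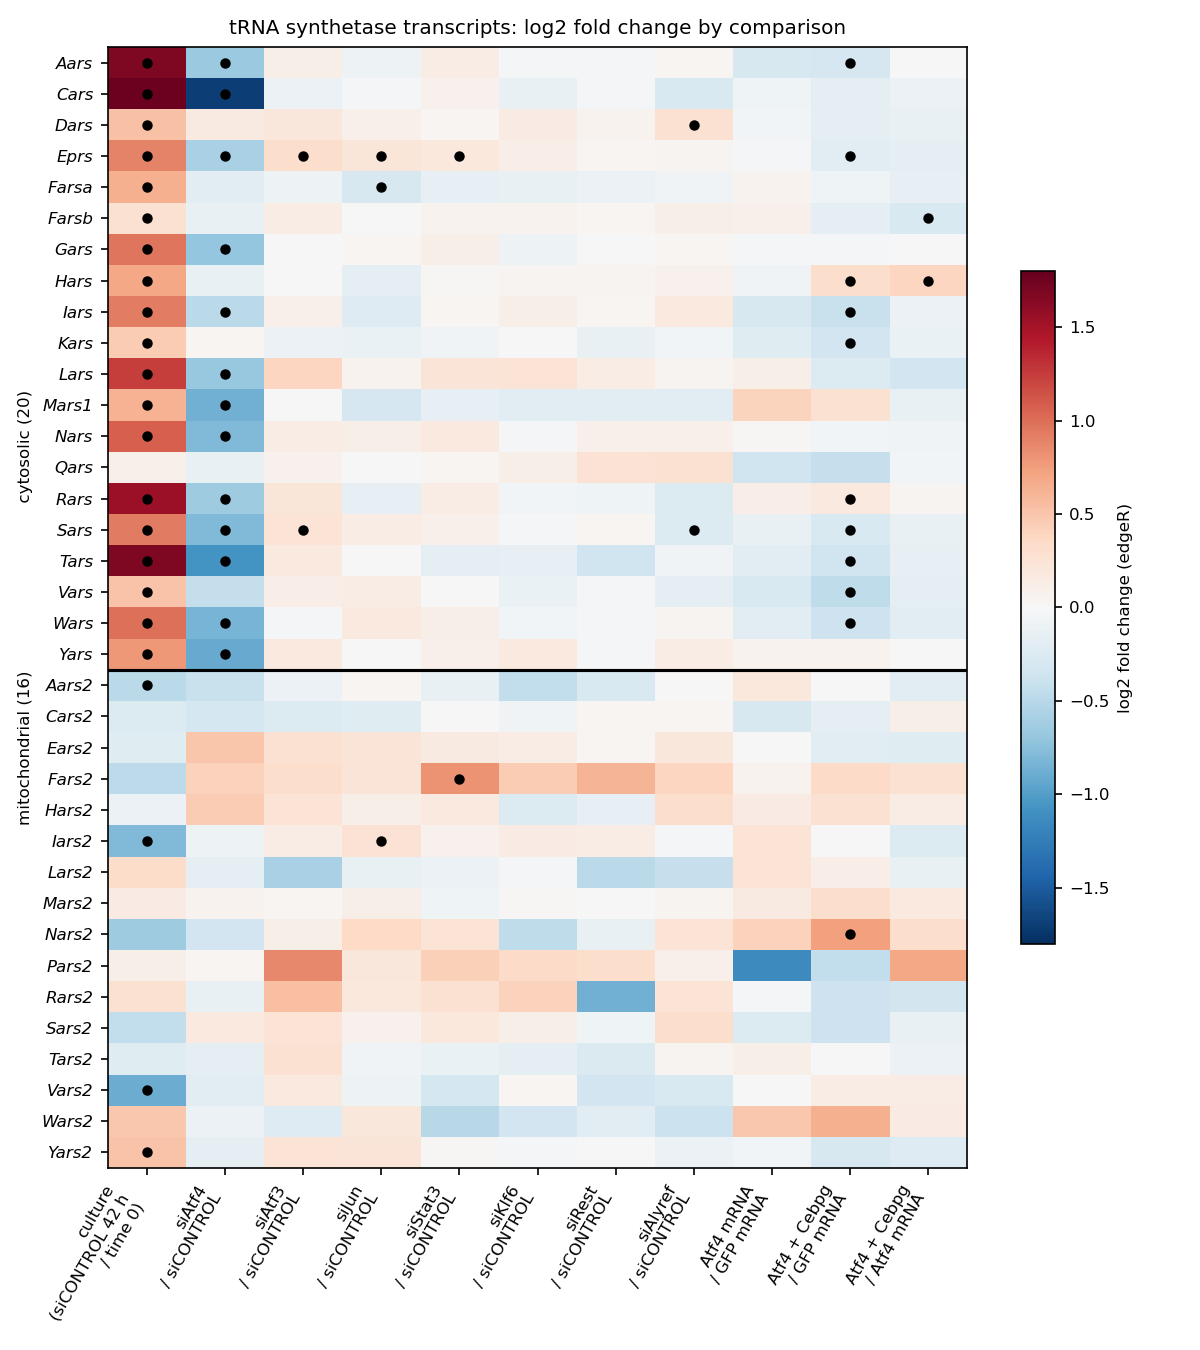
Log2 fold change (edgeR, colour) of the 36 synthetase transcripts in 11 comparisons, each named as a group over its control, with a black dot where the adjusted p was under 0.05; the line separates the 20 cytosolic genes (above) from the 16 mitochondrial ones. Dots fill the cytosolic rows in culture (19) and siAtf4 (13), and most other cells of the map carry none.

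Cars, the cysteinyl enzyme, responded most. It had 36, 30.7, 28.2 and 27.4 CPM in siAtf4, against 115, 95, 102 and 83.4 CPM in siCONTROL. The siAtf4 libraries overlap those of time 0, at 27.7, 32, 29.3 and 26.6 CPM. The fall was 3.23-fold (log2 fold change -1.69 ± 0.0964 SE, edgeR adjusted p = 2.69e-13).

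Tars, the threonyl enzyme, had 42.9, 49.6, 35.3 and 43.7 CPM in siAtf4, against 104, 76.2, 85.9 and 98.8 CPM in siCONTROL. At time 0 it had 21.3, 31.3, 29.7 and 30.2 CPM. Its fall in siAtf4 was 2.12-fold (log2 fold change -1.08 ± 0.138 SE, edgeR adjusted p = 2.69e-06), and the siAtf4 libraries stayed above those of time 0. Yars, the tyrosyl enzyme, had 117, 97.8, 84.9 and 91.7 CPM in siAtf4, against 169, 205, 167 and 192 CPM in siCONTROL. At time 0 it had 109, 106, 107 and 105 CPM, within the range of siAtf4. It fell 1.88-fold in siAtf4 (log2 fold change -0.91 ± 0.113 SE, edgeR adjusted p = 1.92e-06). Mars1, the methionyl enzyme that also charges the initiator tRNA, had 26.8, 23.7, 27.4 and 38.9 CPM in siAtf4, against 53.8, 50.4, 52.3 and 56.9 CPM in siCONTROL. The highest siAtf4 library lies well below the lowest siCONTROL library, and the fall was 1.83-fold (log2 fold change -0.87 ± 0.133 SE, edgeR adjusted p = 4.93e-05).

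Wars, the tryptophanyl enzyme, had 144, 131, 121 and 135 CPM in siAtf4, against 251, 248, 224 and 218 CPM in siCONTROL. At time 0 it had 119.5, 121, 113 and 119 CPM, which overlaps siAtf4. It fell 1.78-fold (log2 fold change -0.83 ± 0.0631 SE, edgeR adjusted p = 1.32e-10). Nars had 534, 496, 497 and 446 CPM in siAtf4, against 854, 912, 762 and 867 CPM in siCONTROL. At time 0 it had 374, 447, 359 and 423 CPM. Its 1.73-fold fall (log2 fold change -0.79 ± 0.0681 SE, edgeR adjusted p = 1.49e-09) was the largest in CPM, from the most abundant of the cytosolic transcripts. Sars, the seryl enzyme, had 292, 284, 265 and 251 CPM in siAtf4, against 494, 514, 439 and 428 CPM in siCONTROL. The groups do not overlap, and it fell 1.72-fold (log2 fold change -0.79 ± 0.0713 SE, edgeR adjusted p = 4.03e-09). Gars had 399.7, 385, 362 and 351 CPM in siAtf4, against 648, 605, 583 and 585 CPM in siCONTROL. It fell 1.62-fold (log2 fold change -0.70 ± 0.0536 SE, edgeR adjusted p = 1.61e-10), and its promoter holds the element printed above.

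The other 5 that fell were Lars (1.60-fold), Aars (1.59-fold), Rars (1.56-fold), Eprs (1.49-fold) and Iars (1.39-fold), for leucine, alanine, arginine, glutamate with proline, and isoleucine. Aars had 203, 195, 195 and 182 CPM in siAtf4, against 309.9, 333, 303 and 283 CPM in siCONTROL. At time 0 it had 96.4, 98.7, 90.9 and 96.6 CPM, so siAtf4 lies between both with no overlap. Rars had 114, 91.2, 106 and 107 CPM in siAtf4, against 175, 156, 153 and 169 CPM in siCONTROL, and 57.4, 50.3, 61.4 and 54.6 CPM at time 0. Lars had 97.3, 83.5, 68.4 and 72.3 CPM in siAtf4, against 126, 139, 121 and 127 CPM in siCONTROL, and 48.9, 61.9, 49.9 and 53.7 CPM at time 0. For both, siAtf4 again lies between the other groups. The Lars call was lost without siAtf4 replicate 3 or 4, with an adjusted p of up to 0.0635.

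Among the cytosolic transcripts, 7 did not pass the test in siAtf4, namely Dars, Farsa, Farsb, Hars, Kars, Qars and Vars, for aspartate, phenylalanine (both subunits), histidine, lysine, glutamine and valine. Their log2 fold changes were 0.16 for Dars, 0.04 for Kars, -0.13 for Hars and Qars, -0.14 for Farsb, -0.20 for Farsa and -0.43 for Vars. Kars had 148, 143, 147 and 144 CPM in siAtf4, against 139, 154, 129 and 143 CPM in siCONTROL, with full overlap. Hars had 275, 285, 251 and 251 CPM in siAtf4, against 308, 318, 255 and 277 CPM in siCONTROL. All of these except Qars had risen in culture, Hars by 1.63-fold and Farsa by 1.56-fold. The 2 genes that serve both compartments thus stood apart in siAtf4, Gars lower and Kars at 146 ± 2.03 CPM in siAtf4 against 141 ± 10.4 CPM in siCONTROL. By complex membership, 5 of 8 complex members and 8 of 12 free enzymes fell (median log2 fold changes -0.53 and -0.74). By class, 8 of 10 class I and 5 of 10 class II genes fell (medians -0.66 and -0.44). These subgroup differences were not tested.

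**Figure D3:**
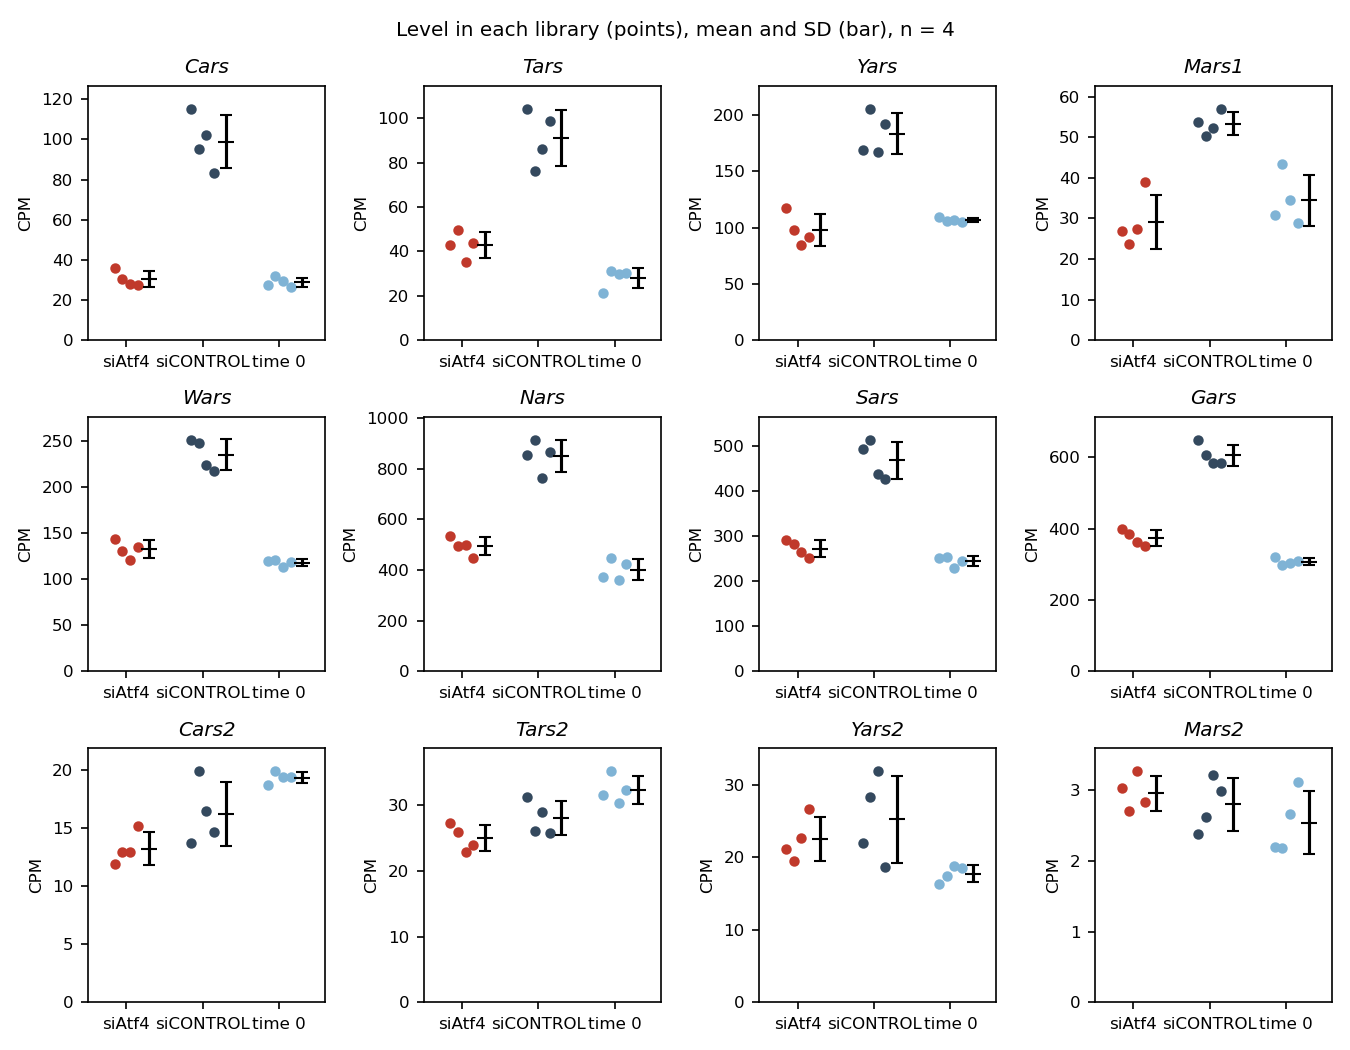
Level (CPM, axes from 0) in each library of siAtf4, siCONTROL and time 0 for the 8 cytosolic transcripts with the largest falls in siAtf4 (upper 2 rows) and for 4 mitochondrial partners (bottom row), with mean and SD (n = 4). The 8 cytosolic genes show siAtf4 below siCONTROL with no overlap, while Cars2, Tars2, Yars2 and Mars2 overlap between siAtf4 and siCONTROL.

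Set against time 0, the siAtf4 libraries lay above with no overlap for 12 cytosolic transcripts and overlapped for 8 (Cars, Mars1, Nars, Qars, Sars, Vars, Wars and Yars). Of the mitochondrial transcripts, 9 overlapped, 5 lay below time 0 (Aars2, Cars2, Iars2, Tars2 and Vars2) and 2 above (Hars2 and Yars2). These positions are given as levels, with no test, and the share over all genes was not counted. In siCONTROL against time 0, 28.7% of all genes rose and 29.2% fell. In siAtf4 the neuronal, Schwann cell and macrophage marker sums overlapped those of siCONTROL, and 2 of the 9 neuronal markers rose. The satellite glia sum was 495 to 624 CPM in siAtf4 against 628 to 735 CPM in siCONTROL, with none of its 5 markers passing the test, and its part in the result was not tested.

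The mitochondrial transcripts were measured less precisely. The median SE of the log2 fold change in siAtf4 was 0.21 for the 16 mitochondrial genes and 0.08 for the 20 cytosolic ones. The 95% interval (1.96 SE) excluded the cytosolic median of -0.66 for 9 mitochondrial transcripts and held it for 7. Among the narrowest, that of Iars2 ran from -0.24 to 0.07 and that of Tars2 from -0.42 to 0.09. Nars2 and Pars2 had intervals of -1.07 to 0.40 and -0.76 to 0.84, which do not exclude a fall of the cytosolic size. In the ratio test all 16 cytosolic to mitochondrial ratios were lower in siAtf4 than in siCONTROL. After adjustment 0 ratios passed, and a pass needs most pairs at the smallest p. Of these, 8 reached the smallest p the exact test allows (0.0286, adjusted p = 0.0571), with log2 differences of -1.40 for Cars and Cars2, -1.08 for Eprs and Ears2, -0.99 for Sars and Sars2, -0.95 for Mars1 and Mars2, -0.92 for Tars and Tars2, -0.68 for Farsa and Fars2, -0.55 for Rars and Rars2 and -0.39 for Iars and Iars2. The pair for alanine, Aars and Aars2, moved least with that for valine, both at -0.31, and Aars2 itself had a log2 fold change of -0.40.

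**Figure D4:**
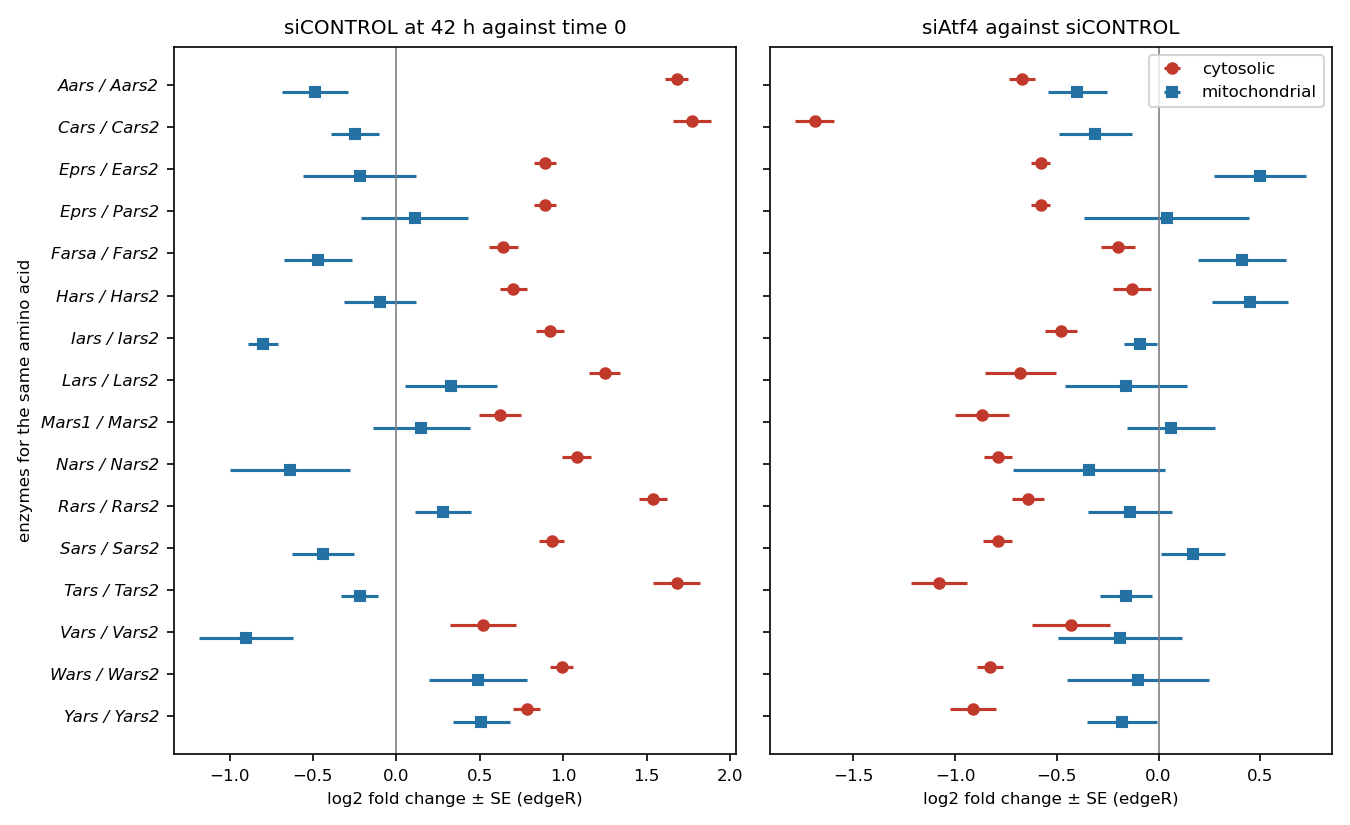
Log2 fold change ± SE (edgeR, n = 4 per group) of the cytosolic (circles) and mitochondrial (squares) enzyme for each of 16 amino-acid pairs, in siCONTROL at 42 h against time 0 (left) and in siAtf4 against siCONTROL (right). In every pair the cytosolic point lies right of the mitochondrial one on the left panel and left of it on the right panel, the closest pairs being Yars and Yars2 in culture and Vars and Vars2 in siAtf4.

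The other 6 knockdowns, which share the siCONTROL libraries with siAtf4 and with each other, moved few synthetases. In siAtf3, Eprs and Sars rose, 2 of 20 cytosolic and 0 of 16 mitochondrial, where 4.0% of all genes rose and 7.49% fell. In siJun, Eprs and Iars2 rose and Farsa fell, where 3.19% rose and 4.59% fell. In siStat3, Eprs and Fars2 rose, where 1.19% rose and 1.84% fell. In siAlyref, Dars rose and Sars fell, where 0.881% rose and 3.37% fell. In siKlf6 (0.706% rose and 1.14% fell) and siRest (0.0134% rose and 0.188% fell) edgeR and DESeq2 called 0 of the 36. At an unadjusted p under 0.05, 1 cytosolic and 2 mitochondrial transcripts passed in siKlf6 and 2 of each set in siRest, where 12% and 6.1% of all genes did. Cytosolic medians lay between -0.04 in siKlf6 and 0.11 in siAtf3.

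Marker sums of several cell types also differed from siCONTROL in some of these knockdowns. In siAtf3, 6 of the 9 neuronal markers fell, and their sum was 9093 to 11035 CPM against 11603 to 14268 CPM in siCONTROL. The Schwann cell sum was 913 to 1077 CPM in siAtf3 against 1244 to 1473 CPM in siCONTROL, and the satellite glia sum was 407 to 549 CPM against 628 to 735 CPM, with 1 marker of each list called lower. In siJun the satellite glia sum was 372 to 594 CPM against 628 to 735 CPM in siCONTROL, with 1 of 5 markers called lower. In siStat3 the macrophage sum was 47.1 to 69.8 CPM against 27.6 to 46.3 CPM in siCONTROL, with C1qa at 0 in both and no marker called. None of these sums overlaps siCONTROL, and their part in the synthetase calls was not tested.

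Eprs was called more often than any other synthetase transcript in these knockdowns, and its libraries lie close together. It had 212, 212, 211 and 203 CPM in siAtf3, 197, 207, 195 and 192 CPM in siJun, and 183, 195, 202 and 191 CPM in siStat3, against 171, 170.3, 166 and 171 CPM in siCONTROL. None of these groups overlaps siCONTROL, and the rises were 1.24-fold in siAtf3 (edgeR adjusted p = 1.93e-05), 1.17-fold in siJun (edgeR adjusted p = 0.00169) and 1.14-fold in siStat3 (edgeR adjusted p = 0.0180). In siAtf4 it had 115, 118, 116 and 107 CPM. Where Eprs was not called it also averaged above the 169.6 CPM of siCONTROL, at 185 CPM in siKlf6, 173 CPM in siRest and 176 CPM in siAlyref. Of these, siKlf6 (175 to 195 CPM) and siAlyref (174 to 178 CPM) do not overlap siCONTROL (166 to 171 CPM). All of these comparisons use the same siCONTROL libraries, and the part of that group in the rises was not tested. The siStat3 call was lost without a filter on low counts, with the 2 groups fitted alone, and without any of 3 single libraries.

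Sars had 581, 553, 572 and 528 CPM in siAtf3 and 411, 404, 398 and 373 CPM in siAlyref, against 494, 514, 439 and 428 CPM in siCONTROL. It rose 1.19-fold in siAtf3 (edgeR adjusted p = 0.0165) and fell 1.18-fold in siAlyref (edgeR adjusted p = 0.0462). Dars had 96.2, 86.0, 96.5 and 94.4 CPM in siAlyref, against 81.1, 67.4, 85.0 and 76.7 CPM in siCONTROL (1.21-fold, edgeR adjusted p = 0.0472). None of these groups overlaps siCONTROL, the margin being narrow for Dars. Farsa had 45.3, 43.6, 38.7 and 39.9 CPM in siJun, against 51.1, 47.7, 53.6 and 53.0 CPM in siCONTROL (1.22-fold lower, edgeR adjusted p = 0.0251). Iars2 had 40.6, 44.3, 42.6 and 41.2 CPM in siJun, against 35.7, 35.9, 34.1 and 35.5 CPM in siCONTROL (1.20-fold, edgeR adjusted p = 0.0410). Fars2, the mitochondrial phenylalanyl enzyme, had 54.3, 47.0, 41.3 and 37.3 CPM in siStat3, against 13.7, 27.1, 30.2 and 30.4 CPM in siCONTROL (1.75-fold, edgeR adjusted p = 0.0328). All 6 calls of this paragraph were lost when 1 of several single libraries was left out, and with the 2 groups fitted alone.

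No synthetase transcript passed the adjusted threshold with Atf4 mRNA. Atf4 transcripts were at 14145 ± 3905 CPM with Atf4 mRNA against 642 ± 53.6 CPM with GFP mRNA, and 0 of the 36 synthetases passed the test (edgeR over 13857 genes, of which 2.76% rose and 2.09% fell). DESeq2 also called 0. At an unadjusted p under 0.05, Mars1 was higher and Aars, Iars, Kars, Tars and Wars lower among the cytosolic genes, and Iars2 higher and Pars2 lower among the mitochondrial ones, where 19.4% of all genes passed. The medians were -0.06 (cytosolic) and 0.08 (mitochondrial). Cars had 86.5, 107, 95.3 and 93.4 CPM with Atf4 mRNA, against 92.7, 112, 97.4 and 101 CPM with GFP mRNA. These overlap throughout, and the 95% interval of its log2 fold change ran from -0.25 to 0.10. Tars had 95.7, 89.2, 79.5 and 80.9 CPM with Atf4 mRNA, against 107, 104, 94.7 and 93.2 CPM with GFP mRNA, with an interval of -0.36 to -0.05. Of the cytosolic genes Mars1 had the highest upper bound, 0.64.

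With Atf4 and Cebpg mRNA together, 8 cytosolic synthetase transcripts fell and 2 rose against GFP mRNA, where 12.2% of all genes fell and 12.4% rose. The falls were modest, 1.16-fold to 1.38-fold, and the cytosolic median was -0.20. Of the mitochondrial genes Nars2 rose, and the median of the 16 was 0.00. Atf4 was at 20850 ± 9608 CPM and Cebpg at 61202 ± 23105 CPM in these cultures, against 642 ± 53.6 and 46.6 ± 5.72 CPM with GFP mRNA. The 5 satellite glia markers summed to 312 to 436 CPM with both mRNAs and 356 to 412 CPM with Atf4 mRNA, against 483 to 537 CPM with GFP mRNA. With both mRNAs 1 of these 5 markers was called higher and 1 lower. The 6 endothelial and mural markers summed to 253 to 298 CPM with both mRNAs, against 174 to 243 CPM with GFP mRNA, and the part of either shift was not tested.

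Wars had 203, 203, 204 and 195 CPM with Atf4 and Cebpg mRNA, against 249, 278, 242 and 274 CPM with GFP mRNA (1.29-fold lower, edgeR adjusted p = 0.000848). Tars had 76.2, 78.4, 74.2 and 82.0 CPM with both mRNAs, against 107, 104, 94.7 and 93.2 CPM with GFP mRNA (1.28-fold lower, edgeR adjusted p = 0.00588). Neither overlaps, and with Atf4 mRNA alone both genes had means between those of the other groups. Sars had 397, 421, 444 and 434 CPM with both mRNAs, against 489.6, 548, 482 and 526 CPM with GFP mRNA (1.21-fold lower, edgeR adjusted p = 0.00825). Kars, which had not passed in siAtf4, had 109, 120.2, 106 and 101 CPM with both mRNAs, against 129.8, 137, 136 and 150 CPM with GFP mRNA (1.27-fold lower, edgeR adjusted p = 0.00873). Iars had 129, 133, 102 and 113 CPM with both mRNAs, against 162, 161, 131 and 177 CPM with GFP mRNA (1.32-fold lower, edgeR adjusted p = 0.0108). Of these, Iars alone shows an overlap, its highest library with both mRNAs lying above its lowest with GFP mRNA.

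Eprs had 182, 163, 172 and 172 CPM with both mRNAs, against 189, 197, 210.4 and 202 CPM with GFP mRNA (1.16-fold lower, edgeR adjusted p = 0.0201). Aars had 277, 279, 268 and 277 CPM with both mRNAs, against 301, 416, 308 and 329 CPM with GFP mRNA (1.23-fold lower, edgeR adjusted p = 0.0415). Vars had 57.9, 55.4, 70.5 and 49.7 CPM with both mRNAs, against 105, 82.0, 59.6 and 75.3 CPM with GFP mRNA (1.38-fold lower, edgeR adjusted p = 0.0383). Aars shows no overlap, with 1 GFP mRNA library far above the others, and Vars overlaps. Hars, the histidyl enzyme, rose and had 385, 436, 399 and 394 CPM with both mRNAs, against 294, 356, 286 and 361 CPM with GFP mRNA (1.25-fold, edgeR adjusted p = 0.0181). Rars had 216, 207, 201 and 207 CPM with both mRNAs, against 182, 186, 179.7 and 192 CPM with GFP mRNA (1.12-fold, edgeR adjusted p = 0.0482). Nars2 had 23.4, 25.8, 13.0 and 11.3 CPM with both mRNAs, against 11.5, 11.3, 11.1 and 9.39 CPM with GFP mRNA (1.68-fold, edgeR adjusted p = 0.0429), so its rise rests on 2 of 4 libraries. Of these 11 calls, those of Wars, Tars, Sars, Kars and Iars held under every alternative and with each library left out. The calls of Aars, Eprs, Hars, Nars2, Rars and Vars were each lost without 1 of several single libraries.

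**Figure D5:**
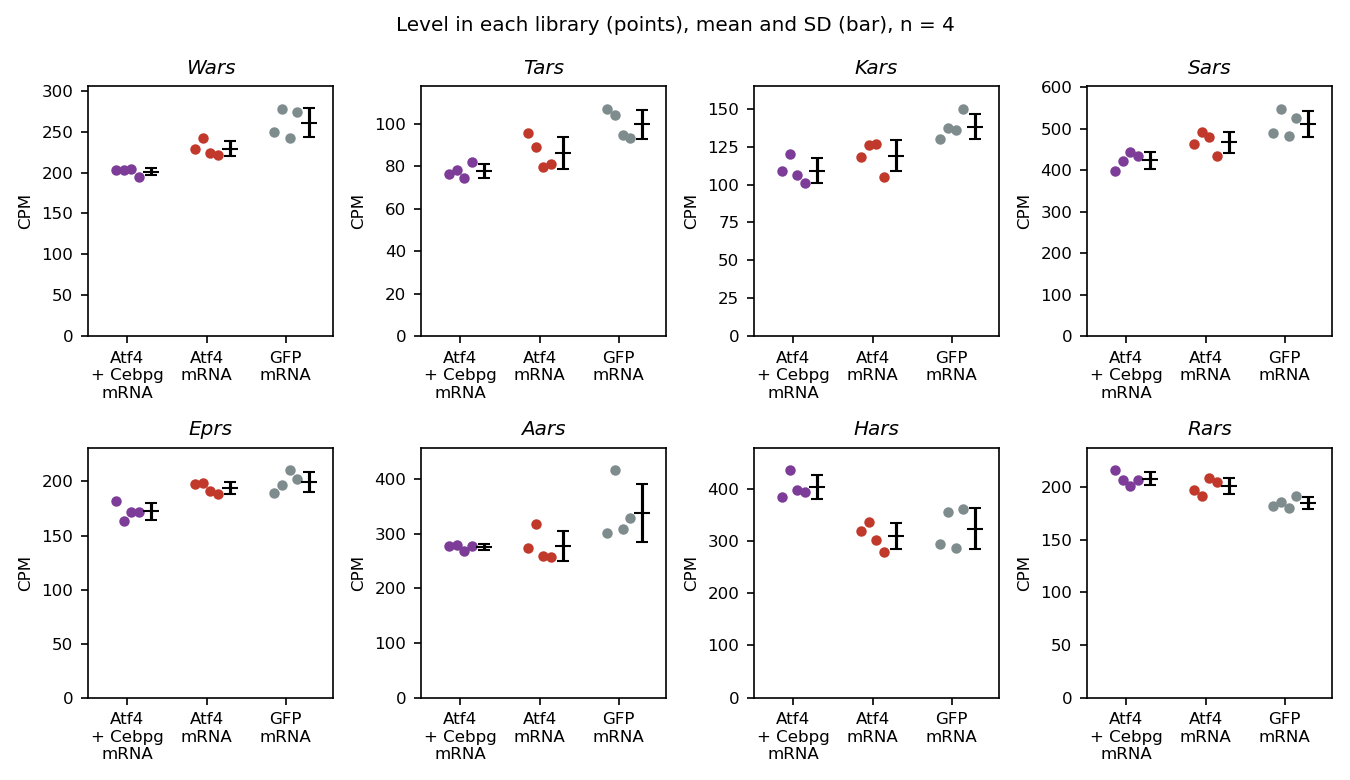
Level (CPM, axes from 0) in each library with Atf4 and Cebpg mRNA, Atf4 mRNA and GFP mRNA for 8 of the cytosolic transcripts called with both mRNAs, with mean and SD (n = 4). Wars, Tars, Kars, Sars, Eprs and Aars lie lower with both mRNAs than with GFP mRNA, and Hars and Rars lie higher.

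Set directly against Atf4 mRNA alone, cultures with both mRNAs differed in 2 synthetases, where 4.50% of all genes rose and 2.10% fell. Hars rose, with 385, 436, 399 and 394 CPM against 319, 337, 302 and 279.6 CPM (1.31-fold, edgeR adjusted p = 0.0191), and the groups do not overlap. Farsb, the beta subunit of the phenylalanyl enzyme, fell, with 94.1, 100, 93.7 and 110.3 CPM with both mRNAs against 119, 115, 127 and 122 CPM with Atf4 mRNA (1.21-fold lower, edgeR adjusted p = 0.0460). The Farsb call was lost without any of 7 single libraries and the Hars call without any of 3. No mitochondrial transcript passed, by edgeR or DESeq2, and 1 (Iars2) did at an unadjusted p under 0.05.

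In the ratio test 0 of 16 pairs passed with Atf4 mRNA, with both mRNAs or in siAtf3. Because a pass needs most pairs at the smallest p, this cannot exclude a change in single pairs. With Atf4 mRNA, 2 pairs reached the smallest possible p of the exact test, Wars and Wars2 (log2 difference -0.64) and Iars and Iars2 (-0.52), each with an adjusted p of 0.229. With both mRNAs Wars and Wars2 did so (-0.91, adjusted p = 0.183). Across the 20 cytosolic genes the log2 fold changes of siAtf4 and of Atf4 mRNA, which share no library, had a Pearson r of -0.16 and a Spearman rho of -0.19, given as a description. For siAtf4 and both mRNAs the values were -0.07 and -0.16.

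Of 16 partner genes of tRNA charging, 3 rose and 5 fell in culture, where 28.7% of all genes rose and 29.2% fell. Xpot, the export receptor for tRNA, rose in culture to 92.6 ± 9.88 CPM in siCONTROL, against 44.5 ± 10.2 CPM at time 0 (edgeR adjusted p = 0.000126). It was the single partner called in siAtf4, with 53.0 ± 3.94 CPM there against 92.6 ± 9.88 CPM in siCONTROL (edgeR adjusted p = 9.69e-05), where 4.17% of all genes fell. Eef1e1, a scaffold of the multi-synthetase complex, and Trnt1, which adds the CCA end to tRNA, also rose in culture, by 0.48 and 0.36 on the log2 scale. The 5 that fell in culture were Dtd1 and Aarsd1 (editing of mischarged tRNA), Qrsl1 (mitochondrial glutaminyl-tRNA), Pstk (selenocysteine tRNA), and the synthetase gene Tarsl2. With Atf4 and Cebpg mRNA, 2 of the 16 rose and 2 fell, close to the shares of all genes (12.4% and 12.2%). Trnt1 was at 98.6 ± 8.65 CPM against 66.7 ± 8.73 CPM with GFP mRNA (edgeR adjusted p = 0.00172). Gatc, a subunit of the mitochondrial glutaminyl-tRNA amidotransferase, also passed the test as higher there, and Pstk and the complex scaffold Aimp2 as lower. Against Atf4 mRNA alone, Trnt1 and Gatc rose with both mRNAs, where 4.50% of all genes rose. No partner was called in the other 6 knockdowns or with Atf4 mRNA alone.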

How the data were processed

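The authors deposited expected counts per gene, which may hold fractions, in 2 tables, siRNA with time 0 in one and mRNA in the other. The submitters' processing notes name kallisto and GRCm39. The version is not given in the sources used here, nor is the scaling. In 3003 single-transcript genes of at least 2000 bp the smallest values times transcript length cluster near 1 constant (1900 to 2200 bp, 44.5% to 67.1% of genes within 4%), so the values were taken as length-weighted.

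Counts were rounded and tested with edgeR 4.0.16 in R 4.3.3 (filterByExpr, TMM, quasi-likelihood F test, Benjamini-Hochberg over all genes tested, threshold 0.05). The 7 knockdowns with siCONTROL, the 3 mRNA groups, and siCONTROL with time 0 were fitted separately, and the tests were checked on simulated data. Levels are TMM-scaled CPM over all libraries of a table. DESeq2 1.42.0 was an alternative. Symbols matched 32470 of 34183 identifiers (95.0%), and the symbol Mars in the annotation was matched to Mars1 as a synonym. Values in every library are given for called genes, the 8 largest changes without overlap where over 8 in a set were called. Members, gene lists and tests were chosen with earlier results of these data known. Same-numbered libraries had correlated deviations of 0.031 to 0.178, all positive but not above 0.1 in every pair of any comparison, so numbers were not taken as pairs. That cutoff was a choice, and some of the smaller counts changed with a replicate block, as given below. Hars and Hars2 adjoin on opposite strands and could exchange reads. Protein sequences were not used here. Promoter sequences are RefSeq's. A single gene of the partner list is not reported here.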

Additional observations from a re-analysis of the deposited data

Results flagged for a closer look

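In 3 of the 69 groups looked at, 1 library stood far from the other 3, where chance gives about 1 in 20. Tars at time 0 had 21.3 CPM in replicate 1 and 29.7 to 31.3 CPM in the others. Eprs in siAtf3 had 203 CPM in replicate 4 and 211 to 212 CPM in the others. Wars with Atf4 and Cebpg mRNA had 195 CPM in replicate 4 and 203 to 204 CPM in the others. Each of these 3 libraries lies on the same side of its control group, or of siCONTROL, as the rest of its own group.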

How the results depend on the processing

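The 19 cytosolic synthetases higher in culture and the 13 lower in siAtf4 all held with DESeq2 size factors, without a filter on low counts, with DESeq2, with a replicate block and with other libraries in the fit. Leaving out single libraries cost 1 call in each (Vars in culture, Lars in siAtf4).

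The remaining counts of called synthetases are small and moved with the setting, and the cause was not tested. With the 2 groups fitted alone, which leaves fewer samples, the cytosolic count was 1 in siAtf3, 1 in siJun, 0 in siStat3, 0 in siAlyref, 6 with Atf4 and Cebpg mRNA and 1 for both mRNAs against Atf4 mRNA, and the mitochondrial count was 0 in siJun, 0 in siStat3 and 0 with Atf4 and Cebpg mRNA. Without the filter, which tests more genes, the cytosolic count was 1 in siJun, 0 in siStat3, 0 in siAlyref and 1 for both mRNAs against Atf4 mRNA, and the mitochondrial count was 0 in siJun and 0 with Atf4 and Cebpg mRNA. DESeq2 gave 4 cytosolic calls in siJun, 4 in siAlyref and 0 mitochondrial in siJun. With DESeq2 size factors in edgeR, 1 cytosolic call was left for both mRNAs against Atf4 mRNA. Same-numbered libraries had weakly positive correlations of their deviations, as given above, and what they share is not stated. With the replicate block the cytosolic count was 5 in siJun, 2 in siStat3 and 2 (lower) with Atf4 mRNA, and 0 ratio pairs passed in culture, where the paired test cannot give a p below 0.125. Of the alternatives chosen after seeing the data, leaving out the shallowest siKlf6 and siRest libraries gave 1 mitochondrial call in siRest, and leaving out the shallowest mRNA library gave 1 cytosolic call for both mRNAs against Atf4 mRNA. Without that library the calls of Aars, Rars, Vars and Nars2 with Atf4 and Cebpg mRNA were also lost, the counts there being 9 cytosolic and 1 mitochondrial (lower).

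With each library left out in turn, the cytosolic counts ranged from 1 to 2 in siAtf3, 1 to 2 in siJun, 0 to 1 in siStat3, 0 to 2 in siAlyref, 0 to 1 with Atf4 mRNA, 6 to 9 with Atf4 and Cebpg mRNA and 0 to 2 for both mRNAs against Atf4 mRNA. The mitochondrial counts ranged from 2 to 5 in culture, 0 to 1 in siAtf4, siJun, siStat3, siKlf6 and siRest, and 0 to 2 with Atf4 and Cebpg mRNA. Several mitochondrial genes lie below 10 CPM, and the part of depth in their wider intervals was not tested.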
